A study of Mus musculus with 4 samples.

Results

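The heat-shock chaperones of the cytosol and mitochondria were read in activated CD4+ T cells. They were taken as the rows of the expression table that carry 1 of 10 listed gene symbols, and all 10 were found among the 16142 genes. RNA-seq was performed on polyA RNA of 4 libraries, 2 labelled wild type (WT) and 2 labelled R111A overexpression (R111A). R111A is a mutant of Regnase-1, the RNase encoded by Zc3h12a, that the protease MALT1 cannot cleave. WT cells came from the spleen of B6 mice, and R111A cells from that of Cd4CreERT2 LSL-R111A fl/fl mice, in which tamoxifen (75 mg/kg, i.p., 5 days) lets a Cre driven by Cd4 remove a stop cassette and the CAG promoter at Rosa26 then drives the mutant together with EGFP. The wording of the labels can be read as tamoxifen for both groups, and WT mice received it in other experiments of the study, but for the WT libraries it is not stated outright. WT mice carried neither Cre nor the transgene, so an effect of Cre cannot be told apart from that of the mutant. The methods give an age of 6 to 12 weeks and both sexes for mice of the whole study. Cells were enriched with beads, sorted by FACS with no gate given in the labels, and all 4 libraries were made after stimulation for 12 h with 5 µg/mL of anti-CD3 plus 1 µg/mL of anti-CD28. For mice with a GFP reporter, the methods describe a gate on GFP+ cells and then a sort by CD25. Whether that gate was used for these libraries is not stated. Unstimulated cells were not analysed here, so the levels below are those of activated cells only.

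Chaperones bind unfolded or half-folded proteins and release them in cycles driven by ATP. In the cytosol, J-domain proteins such as Dnaja1 and Dnajb1 deliver clients to HSP70, HSP110 proteins such as Hsph1 exchange its nucleotide, and many signalling proteins are then passed to HSP90. In the mitochondrial matrix, Hspd1 (HSP60) forms a barrel in which proteins fold and Hspe1 (HSP10) is its lid. Activated T cells make much new protein, and several of these chaperones are known to rise as T cells leave quiescence, while Hspa1a and Hspa1b are the classical HSP70 genes induced by heat through heat-shock factor 1.

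The values are FPKM, reads scaled by transcript length and by the reads of the library, so levels of different genes can be compared within a library. Their sum was 801475 in the first WT library, 836143 in the other, 1053551 in R111A replicate 1 and 1012215 in R111A replicate 2. From the smallest values, where single reads show as steps, 1 read on a transcript of 1 kb was estimated to be worth 0.0791 and 0.0764 FPKM in WT cells against 0.0831 and 0.0897 FPKM in R111A, so the 4 libraries were of like depth. The labels do not say whether libraries of a group came from separate animals, so p-values may measure only technical spread. Zc3h12a (NCBI gene 230738, chr4:125118414-125127881 of GRCm38, the build of all coordinates given), which checks the labels, was listed at 16.97 and 15.72 FPKM in WT cells against 196.30 and 130.87 FPKM in R111A. Its log2 fold change was 3.22 (SE 0.19, adjusted p = 9.2e-06), and the table does not separate transgene from endogenous transcripts.

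The 10 chaperones together made up 1.28% and 1.15% of all FPKM in the WT libraries, but 0.467% and 0.497% in the R111A libraries. Their summed level was 10241 and 9610 FPKM in WT against 4924 and 5030 FPKM in R111A. Hspa8 and Hsp90ab1 were the most abundant of them in every library, and the share of that sum which both held was 70.0% and 69.9% in WT and 71% and 64.7% in R111A. The order of levels ran from Hspa8, the highest in every library, to Hspa1a, near 0 in WT, as the plot of levels by library shows. In WT, Hspe1, Hspd1 and Hsp90aa1 lay close together behind Hsp90ab1, and the 2 WT values of Hspd1 (933.38 and 799.57 FPKM) enclosed one of the values of Hsp90aa1 (800.56 and 771.05 FPKM), so that pair did not differ beyond its spread. These are bulk samples, in which fewer cells of a type and less RNA per cell cannot be told apart.

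**Figure D1:**
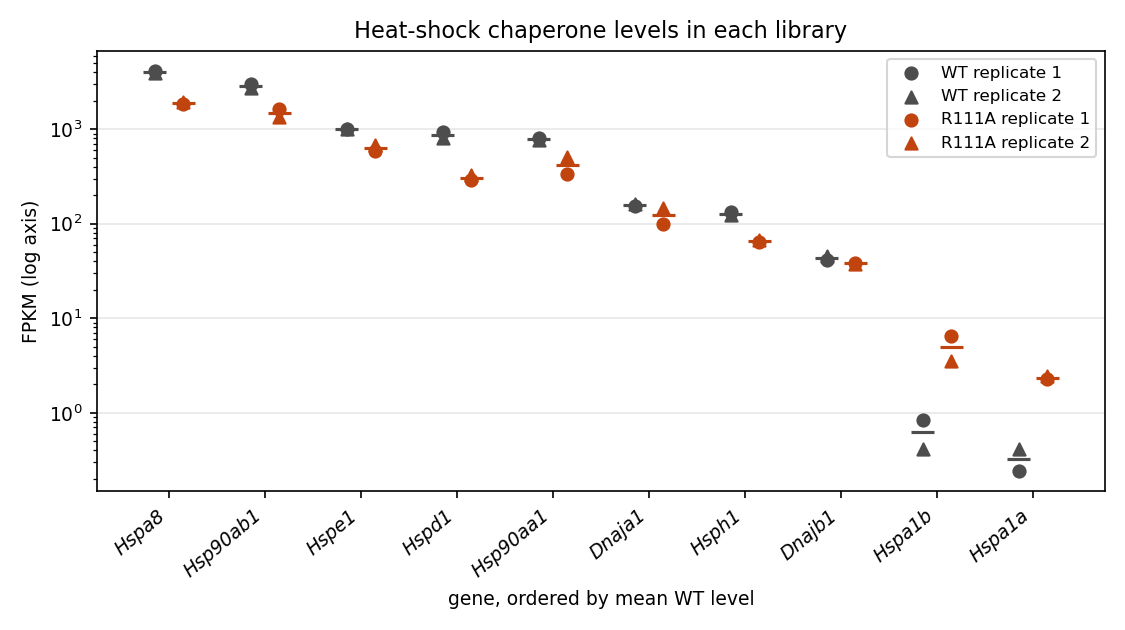
FPKM of the 10 chaperones in each library, on a log axis, with genes ordered by their mean in WT. Circles are replicate 1 and triangles replicate 2, grey for WT and red for R111A, and short lines are group means. For 8 genes both R111A points lie below both WT points, and for Hspa1b and Hspa1a both lie above them.

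Differences were tested with limma on log2(FPKM + 1), a scale that understates changes of low genes, with adjustment over the 9831 genes whose mean was at least 1 FPKM. At an adjusted p under 0.05, 6 chaperones were lower in R111A (Hspd1, Hspa8, Hsp90ab1, Hsph1, Hsp90aa1 and Hspe1), where 32.1% of all genes tested were lower. At the same threshold 2 were higher (Hspa1b and Hspa1a), against 21.2% of all genes, and 2 did not pass (Dnaja1 and Dnajb1). With a change of at least 2-fold also required, 2 were lower (Hspd1 and Hspa8), against 8.34% of all genes, and 2 were higher (Hspa1a and Hspa1b), against 8.52%. Both R111A libraries lay below both WT libraries for 8 chaperones, as for 46.3% of all genes, and above them for 2, as for 32% of all genes. Hspa1a and Hspa1b reached the mean of 1 FPKM only through R111A, so they had to differ to be tested, and only the other 8 had a mean of at least 1 FPKM in both groups. The median log2 fold change was -0.79 over the 10 and -0.93 over those 8, beside -0.12 over all genes tested. The smallest two-sided p that exact permutation of 4 libraries in groups of 2 can reach is 0.333. Each adjusted p rests instead on the model of limma, which combines the spread of the gene with that shared across genes.

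Over all genes, 820 were lower and 838 higher at 2-fold, and after each library was rescaled to the same sum (TPM) these were 1756 and 580 (17.8% and 5.86%). At the adjusted p alone, the shares of all genes moved with the setting, from 32.1% lower and 21.2% higher to 51.8% and 13.5% in TPM, 26.7% and 23.7% under quantile scaling, 19.9% and 14.4% without WT replicate 1, 19.7% and 14.7% without WT replicate 2, 37.6% and 25.8% without R111A replicate 1, and 38.6% and 25.4% without R111A replicate 2. Of the chaperones, 8 were lower and 2 higher in TPM, 7 and 2 without R111A replicate 2, and 6 and 2 as deposited, under quantile scaling and without each other library. Fits without an R111A library took their spread from the WT pair, whose replicates lay closer together than those of R111A. The spread of the log2 ratio between replicates was 0.135 in WT and 0.318 in R111A, so calls from those fits are likely too many. The rescaling to TPM moved the median of all genes by -0.30 on the log2 scale, to -0.42. Relative to the median of all genes, Hspd1 lay at -1.38 as deposited and at -1.41 in TPM, Hspa8 at -0.98 and -1.01, and Hspa1b at 1.96 and 2.11. Quantile scaling placed Hspd1 at -1.32 and Hspa8 at -1.53, and Hsp90ab1 at -1.10 against -0.85 as deposited. Every chaperone kept the sign of its raw log2 fold change under TPM, median-of-ratios and quantile scaling, except Dnajb1, which was at 0.0048 under quantile scaling. In TPM, 5 chaperones were lower by 2-fold, against 17.8% of all genes, since Hsp90aa1, Hsp90ab1 and Hsph1 then joined Hspa8 and Hspd1. Under quantile scaling 3 were, against 7.16%, with Hsp90ab1 at -1.14.

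**Figure D2:**
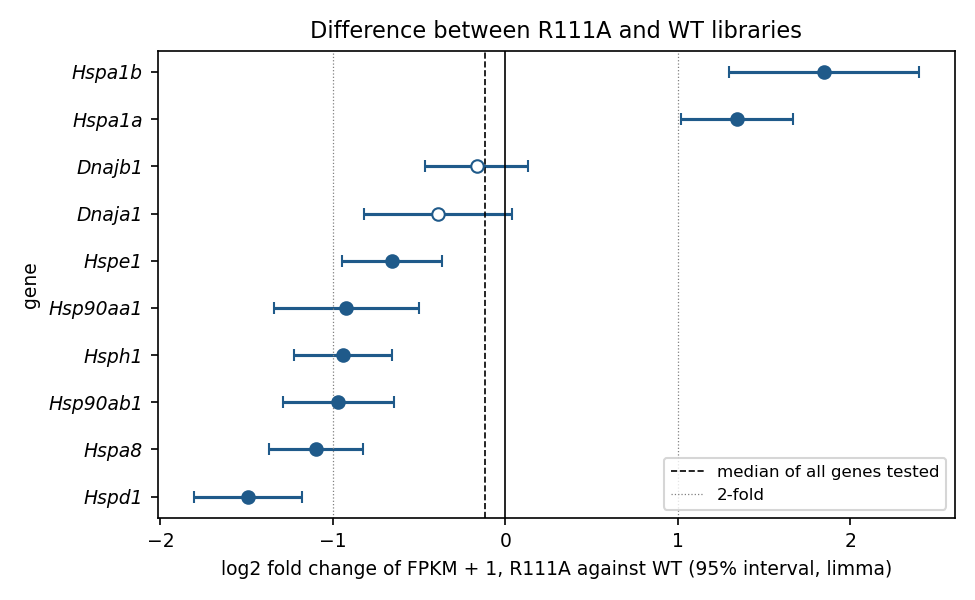
Log2 fold change of FPKM + 1 in R111A against WT for each chaperone, with its 95% interval from limma. Filled points have an adjusted p under 0.05, the dashed line is the median of all genes tested (-0.12) and the dotted lines mark 2-fold. The points run from -1.49 for Hspd1 to 1.85 for Hspa1b, and the intervals of Dnaja1 and Dnajb1 include 0.

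Hspa8 (NCBI gene 15481, chr9:40801276-40805202), the constitutive HSP70 of the cytosol, was the most abundant of the 10, at 4149.91 and 3964.94 FPKM in WT cells against 1869.66 and 1922.31 FPKM in R111A. The replicates of each group lay close together and the groups were far apart. Its log2 fold change was -1.10 (SE 0.12, adjusted p = 0.00014). Among all genes it ranked 34th and 45th in the WT libraries and 84th in both R111A libraries.

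Hspa1a and Hspa1b are the heat-inducible HSP70 genes, which lie near each other on chromosome 17 and each have 1 exon. Hspa1a (NCBI gene 193740, chr17:34969359-34972156) was listed at 0.24 and 0.41 FPKM in WT cells against 2.27 and 2.45 FPKM in R111A. Hspa1b (NCBI gene 15511, chr17:34956429-34959238) was listed at 0.83 and 0.41 FPKM in WT cells against 6.43 and 3.50 FPKM in R111A. Both were near the floor of detection in WT and low but well above it in R111A, with no overlap of the groups. From the size of 1 read, Hspa1a rested on an estimated 9 and 16 reads in WT and 81 in each R111A library. Hspa1b rested on 29 and 15 in WT and 217 and 109 in R111A. These read numbers are rough, since the size of 1 read was sought only within a set range. The log2 fold change was 1.34 for Hspa1a (SE 0.14, adjusted p = 0.00012) and 1.85 for Hspa1b (SE 0.24, adjusted p = 0.00036), in both R111A libraries. These sizes depend on the pseudocount, since they were 2.56 and 2.82 with 0.1 FPKM added and 0.47 and 0.81 with 5 FPKM added. The coding sequences of the pair are identical at 1915 of 1923 bases aligned with 1 gap of 3 bases, so how reads were divided between them is uncertain. The sum of both was 1.07 and 0.82 FPKM in WT cells against 8.70 and 5.95 FPKM in R111A.

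Promoter windows from RefSeq (GRCm38.p6, 250 bases before to 50 after each start) were held for 7 of the 10 chaperones, in 12 windows. They were Hspa1a, Hspa1b, Hsph1, Dnaja1, Dnajb1, Hspd1 and Hspe1, and the others are Hspa8, Hsp90aa1 and Hsp90ab1. The heat-shock element, the letters to which heat-shock factors bind, was searched as GAANNTTCNNGAA and its reverse complement TTCNNGAANNTTC, on both strands. These forms overlap where 4 units follow each other. An exact match was held by 0.603% of all 32851 windows, and a match with up to 1 mismatch by 7.22%. The stretches before the start with the best matches are shown because they lie at genes that moved in opposite directions. Each has 2 overlapping matches, which the capitals mark, exact for Hspe1 and with 1 mismatch each for Hspa1a, Hspa1b and Hsph1.
Hspe1, chr1:55088053-55088082, plus strand: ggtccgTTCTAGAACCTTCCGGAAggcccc
Hspa1a, chr17:34972247-34972276, minus strand: agacgcGAAACTGCTGGAAGATTCctggcc
Hspa1b, chr17:34959329-34959358, minus strand: agacgcGAAACTGCTGGAAGATTCctggcc
Hsph1, chr5:149636346-149636375, minus strand: gaatctTTCTCGAAGGCTCGAGAAgaagga
The Hspe1 stretch also lies before the start in window 2 of Hspd1, while window 1 had no match with up to 1 mismatch. The pair is transcribed in opposite directions from a shared promoter. In GENCODE, exons of Hspd1 and of Hsph1 that start farther upstream cover the capitals in their stretch, outside the coding sequence. With bases before a start counted as negative, the capitals begin at -89 for Hspe1 and at -114 for Hspa1a and Hspa1b, whose windows differ at 4 of 300 bases. Hsph1 also had an exact match after its start, Dnaja1 had 1 match with 1 mismatch in 1 of 3 windows, and Dnajb1 had none with up to 1 mismatch. A match is a description of letters and not of binding.

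Hsph1 (NCBI gene 15505, chr5:149616843-149636498), the HSP110 that exchanges the nucleotide of HSP70, was at 132.46 and 124.04 FPKM in WT cells against 64.66 and 68.01 FPKM in R111A. The groups were clearly apart and the log2 fold change was -0.94 (SE 0.12, adjusted p = 0.00040). Neither of the J-domain proteins that deliver clients to HSP70 passed. Dnaja1 (NCBI gene 15502, chr4:40722468-40734965) was at 155.89 and 161.31 FPKM in WT cells against 98.39 and 148.49 FPKM in R111A. R111A replicate 2 lay near WT and replicate 1 well below it. The log2 fold change of -0.39 did not pass (SE 0.19, adjusted p = 0.11), but it did with replicate numbers as a block (adjusted p = 0.028). It was -0.68 without R111A replicate 2 and -0.09 without R111A replicate 1, and it also passed in TPM (adjusted p = 0.0040). Over the alternatives that kept all libraries, the adjusted p ran from 0.0040 to 0.52. Dnajb1 (NCBI gene 81489, chr8:83608175-83612653) was at 40.84 and 45.03 FPKM in WT cells against 38.72 and 37.53 FPKM in R111A, all 4 values within a narrow band. Its log2 fold change of -0.17 did not pass (SE 0.13, adjusted p = 0.31), with a 95% interval from -0.46 to 0.13, although in TPM it passed at -0.49 (adjusted p = 0.0084, the lowest over the alternatives, with 0.98 the highest).

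HSP90 of the cytosol is made from 2 genes, and both were lower in R111A. Hsp90ab1 (NCBI gene 15516, chr17:45567778-45573261), the constitutive isoform, was at 3016.50 and 2749.53 FPKM in WT cells against 1625.55 and 1333.79 FPKM in R111A. Each R111A value was far below each WT value, and the log2 fold change was -0.97 (SE 0.14, adjusted p = 0.00064). Hsp90aa1 (NCBI gene 15519, chr12:110691036-110696395), the inducible isoform, was at 800.56 and 771.05 FPKM in WT cells against 338.66 and 506.08 FPKM in R111A. The WT replicates were close and the R111A replicates were not, yet both were below WT, with a log2 fold change of -0.92 (SE 0.18, adjusted p = 0.0032). It was -1.21 without R111A replicate 2 and -0.63 without R111A replicate 1, and so lay on both sides of 2-fold. Hsp90ab1 passed 2-fold without WT replicate 2 (-1.03) and without R111A replicate 1 (-1.11), as it did under quantile scaling (-1.14).

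The chaperonin of the mitochondria changed unequally. Hspd1 (NCBI gene 15510, chr1:55077833-55088243), the barrel, was at 933.38 and 799.57 FPKM in WT cells against 287.10 and 327.16 FPKM in R111A. The groups did not overlap, and the log2 fold change of Hspd1 was -1.49 (SE 0.14, adjusted p = 6.0e-05), the largest decrease of the 10 in the values as deposited, though under quantile scaling that of Hspa8 was larger (-1.57 against -1.36 for Hspd1). Hspe1 (NCBI gene 15528, chr1:55088148-55091317), its lid, was at 1010.11 and 993.55 FPKM in WT cells against 592.44 and 681.08 FPKM in R111A. It was also lower in both R111A libraries, by a smaller log2 fold change of -0.66 (SE 0.13, adjusted p = 0.0028), which was -0.99 in TPM.

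Ratios within a library are the same after each library is divided by 1 factor, though not after quantile scaling, under which the log2 fold changes of Hsp90aa1 and Hsp90ab1 differed by 0.38 in place of 0.04. Hspd1 to Hspe1 was 0.924 and 0.805 in WT and 0.485 and 0.480 in R111A, so the genes that share a promoter were near parity in WT and not in R111A. Hsp90aa1 to Hsp90ab1 was 0.265 and 0.280 in WT and 0.208 and 0.379 in R111A, with R111A on both sides of WT. Dnaja1 to Dnajb1 was 3.82 and 3.58 in WT and 2.54 and 3.96 in R111A, again overlapping. Hspa8 to the sum of Dnaja1 and Dnajb1, a ratio chosen after the values were seen, was 21.1 and 19.2 in WT and 13.6 and 10.3 in R111A, lower in both R111A libraries. Hspa8 exceeded the sum of Hspa1a and Hspa1b by 3878 and 4835 times in WT and by 215 and 323 times in R111A, so the inducible genes stayed a very small part of HSP70 transcripts in every library. No test of these ratios was made.

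**Figure D3:**
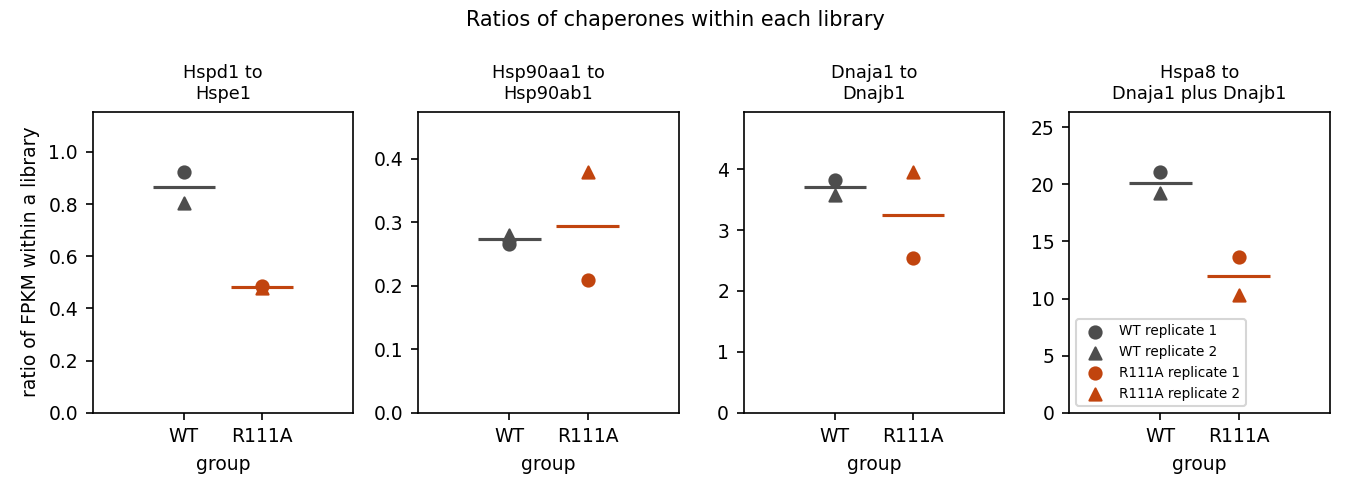
Ratios of FPKM between chaperones within each library, each panel on its own linear axis from 0. Circles are replicate 1 and triangles replicate 2, and lines are group means. Hspd1 to Hspe1 falls from 0.924 and 0.805 in WT to 0.485 and 0.480 in R111A, whereas Hsp90aa1 to Hsp90ab1 and Dnaja1 to Dnajb1 overlap between groups.

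Other genes of chaperone biology were read from 7 lists of 91 genes, of which 89 were in the table and 75 were tested. At an adjusted p under 0.05, 30 were lower (40%, against 32.1% of all genes) and 11 were higher (14.7%, against 21.2%), with 34 not past it and a median of -0.25. In TPM these were 49 (65.3%, against 51.8% of all genes) and 5 (6.67%, against 13.5%). Under quantile scaling they were 24 (32%, against 26.7%) and 14 (18.7%, against 23.7%). The median was -0.58 in TPM and -0.16 under median-of-ratios scaling. Under quantile scaling it was -0.07, beside -0.04 over all genes. With 1 library left out, 21 were lower and 8 higher without WT replicate 1 (28% and 10.7%, against 19.9% and 14.4% of all genes) and 21 and 6 without WT replicate 2 (28% and 8%, against 19.7% and 14.7%). There were 38 and 14 without R111A replicate 1 (50.7% and 18.7%, against 37.6% and 25.8%) and 35 and 17 without R111A replicate 2 (46.7% and 22.7%, against 38.6% and 25.4%). The plot of lists shows each gene. HSP90 co-chaperones, which load and time HSP90, had 11 of 18 lower (32.1% of all genes were) and 2 higher (21.2% of all genes), with a median of -0.56. In TPM 14 were lower (51.8% of all genes) and the median was -0.88, and under quantile scaling it was -0.38. Without WT replicate 1, 7 were lower and 1 higher (19.9% and 14.4% of all genes). Fkbp4, a steroid receptor immunophilin, was at 291.57 and 300.21 FPKM in WT cells against 129.00 and 126.40 FPKM in R111A (log2 fold change -1.21, SE 0.12, adjusted p = 8.6e-05). The phosphatase Ppp5c (-1.03) and Ahsa2 (-1.01) were also lower by 2-fold, though both fell short of it under median-of-ratios scaling (-0.94 and -0.92) and with 5 FPKM added (-0.98 and -0.72), Ppp5c without R111A replicate 2 (-0.92) and Ahsa2 without WT replicate 2 (-0.98) or R111A replicate 1 (-0.93). All 3 fell short of it under quantile scaling, with Fkbp4 at -0.98. Cdc37l1 (0.71) and Unc45a (0.44) were the 2 higher ones. The call of Cdc37l1 was lost in TPM (0.39, adjusted p = 0.12, the highest over the alternatives, with 8.6e-05 the lowest), with no filter (adjusted p = 0.089) and without WT replicate 2 (adjusted p = 0.062), and its change was 0.38 without R111A replicate 2. That of Unc45a was lost in TPM (0.12, adjusted p = 0.52, the highest over the alternatives, with 0.0038 the lowest), with no filter (adjusted p = 0.081) and without WT replicate 1 (adjusted p = 0.28) or 2 (adjusted p = 0.19), and its change was 0.27 without R111A replicate 1.

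Of the HSP70 and HSP110 family with exchange and adaptor factors, 5 of 12 tested were lower and 1 higher, beside 32.1% and 21.2% of all genes, and the list median was -0.33. In TPM 9 were lower (51.8% of all genes) and the median was -0.66, and under quantile scaling it was -0.22. Under median-of-ratios or quantile scaling 2 were higher (24.4% and 23.7% of all genes). Without R111A replicate 1, 9 were lower and 2 higher (37.6% and 25.8% of all genes), and 2 were also higher without R111A replicate 2 (25.4%). Bag2, an exchange factor of HSP70, was at 9.68 and 11.01 FPKM in WT cells against 1.2 and 1.8 FPKM in R111A cells, which gave a log2 fold change of -2.19 (SE 0.17, adjusted p = 2.4e-05), or of -1.24 with 5 FPKM added. St13 (-0.86) and Hspa14 (-0.74) were lower as well, and so were Hspa4 (-0.70) and Bag4 (-0.64, or -0.42 with 5 FPKM added), which are named after their values were seen. Bag4 did not pass without WT replicate 1 (adjusted p = 0.069, the highest over the alternatives, with 0.00031 the lowest) or 2 (adjusted p = 0.065). Hspa4l, an HSP110 relative, was higher at 18.52 and 18.18 FPKM in WT cells against 26.90 and 42.16 FPKM in R111A (0.84, adjusted p = 0.0075), a change of 0.53 without R111A replicate 2 and of 0.52 in TPM, and it did not pass with no filter on low genes (adjusted p = 0.052, the highest over the alternatives, with 1.8e-06 the lowest). Hspa2, Hspa1l, Hspa12a and Hspa12b were too low to be tested.

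Cytosolic J-domain proteins had 4 of 13 lower and 2 higher, beside 32.1% and 21.2% of all genes, with a median of -0.08. In TPM 8 were lower (51.8% of all genes) and the median was -0.42, as over all genes. That median was 0.0056 under median-of-ratios scaling, -0.02 under quantile scaling, -0.22 at a mean of 5 FPKM or more, -0.21 without WT replicate 1 and -0.30 without R111A replicate 2 (-0.13 over all genes). Under quantile scaling or without WT replicate 1 or 2, 1 was lower (26.7%, 19.9% and 19.7% of all genes). Dnajc21 was lower (49.19 and 46.44 FPKM in WT cells against 23.22 and 26.33 FPKM in R111A cells, log2 fold change -0.92, adjusted p = 0.00065). Dnajc2 (-0.57) and Dnaja2 (-0.52) were lower and Dnajb5 (0.63) higher. Dnajb6 (-0.49) was also lower and Dnajb4 (0.44) higher, both named after their values were seen. The call of Dnajc2 was lost under quantile scaling (-0.32, adjusted p = 0.077) and without WT replicate 1 (adjusted p = 0.096, the highest over the alternatives, with 0.00015 the lowest) or 2 (adjusted p = 0.056), and it was -0.91 in TPM. That of Dnaja2 was lost under quantile scaling (-0.29, adjusted p = 0.16, the highest over the alternatives, with 0.00053 the lowest), with no filter (adjusted p = 0.067) and without WT replicate 1 (adjusted p = 0.096) or 2 (adjusted p = 0.12), and it was -0.32 without R111A replicate 1 and -0.85 in TPM. Dnajb5 lost its call in TPM (0.32, adjusted p = 0.099) and without WT replicate 2 (adjusted p = 0.11, the highest over the alternatives, with 0.00067 the lowest). Dnajb6 lost its call under quantile scaling (-0.25, adjusted p = 0.13) and without WT replicate 1 (adjusted p = 0.13) or 2 (adjusted p = 0.16, the highest over the alternatives, with 0.00026 the lowest), and it was -0.82 in TPM. For Dnajb4 the call was lost in TPM (0.20, adjusted p = 0.30, the highest over the alternatives, with 0.012 the lowest), with no filter on low genes (adjusted p = 0.060), after quantile scaling (adjusted p = 0.069) and without WT replicate 1 (adjusted p = 0.13) or 2 (adjusted p = 0.24), and the change was 0.21 with 5 FPKM added.

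Mitochondrial chaperones, import motor and proteases had 8 of 20 lower and 2 higher, beside 32.1% and 21.2% of all genes, with a median of -0.29. In TPM 15 were lower (51.8% of all genes), 7 of them by 2-fold (17.8%) with Hspa9, Phb2 and Grpel2 among these, and the median was -0.62, whereas it was -0.06 under quantile scaling. Without R111A replicate 1, 12 were lower and 3 higher (37.6% and 25.8% of all genes), and 1 was higher without WT replicate 1 or 2 (14.4% and 14.7%). Hspa9, the HSP70 of the matrix, was at 365.57 and 353.06 FPKM in WT cells against 197.67 and 207.25 FPKM in R111A (-0.82, SE 0.12, adjusted p = 0.00065). Phb2 (-0.90) and Grpel2 (-0.86), an exchange factor of Hspa9, were lower too, and the protease subunit Spg7 (0.73, or 0.41 in TPM) and the J-domain protein Hscb (0.37) were higher. Hscb did not pass in TPM (0.05, adjusted p = 0.77, the highest over the alternatives, with 0.0098 the lowest), with no filter (adjusted p = 0.052) or without WT replicate 1 (adjusted p = 0.29) or 2 (adjusted p = 0.36).

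Of the heat-shock factors and their regulators, 4 were tested and 2, Hsf2 and Hsf2bp, were higher. Without Hsf2bp, which reached the mean of 1 FPKM only through R111A, 1 of 3 was higher, where 21.2% of all genes were, and the median of these 3 was 0.31, or -0.02 in TPM and 0.51 under quantile scaling. Without R111A replicate 1, 2 of the 3 were higher (25.8% of all genes), without R111A replicate 2 all 3 were (25.4%), and under median-of-ratios or quantile scaling 2 were (24.4% and 23.7%). Hsf1, the factor that answers heat, was at 35.80 and 34.76 FPKM in WT cells against 43.23 and 34.61 FPKM in R111A, which overlapped and did not pass (0.13, adjusted p = 0.48). It was 0.29 without R111A replicate 2, but -0.03 without R111A replicate 1 and -0.20 in TPM. Over the alternatives that kept all libraries, its adjusted p ran from 0.17 to 0.51. Hsf2 was at 8.95 and 9.31 FPKM in WT cells against 14.43 and 20.47 FPKM in R111A (0.85, SE 0.18, adjusted p = 0.0041), or higher by 0.54 in TPM. Hsf2bp, named after its values were seen, was at 0.15 and 0.20 FPKM in WT cells against 7.58 and 8.42 FPKM in R111A, a change of 2.94, or of 4.88 with 0.1 FPKM and 1.33 with 5 FPKM added. Small heat-shock proteins, 7 of 8 in the table, were too low to be tested, with summed levels from 0.88 to 1.75 FPKM.

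Other heat-inducible genes, 8 in number, had 2 lower and 2 higher, beside 32.1% and 21.2% of all genes. The median was 0.22, but -0.09 in TPM, 0.13 without WT replicate 1 and 0.05 without R111A replicate 1. In TPM 3 were lower and 1 higher (51.8% and 13.5% of all genes), without R111A replicate 2 there were 4 higher (25.4%), and 1 was lower without WT replicate 2 (19.7%) or R111A replicate 1 (37.6%) and under median-of-ratios (26.9%) or quantile scaling (26.7%). Ier5 was at 29.43 and 32.62 FPKM in WT cells against 138.80 and 94.67 FPKM in R111A (1.85, SE 0.18, adjusted p = 8.7e-05), and Dedd2 was higher by 0.61 but not past the threshold in TPM (0.29, adjusted p = 0.12) or without WT replicate 1 (adjusted p = 0.17, the highest over the alternatives, with 0.00077 the lowest). Cacybp was lower (-1.11, or -0.97 without WT replicate 2 and -0.90 under quantile scaling). Rbm3 (-0.44, or -0.77 in TPM) did not pass with no filter (adjusted p = 0.091), under median-of-ratios (adjusted p = 0.077) or quantile scaling (adjusted p = 0.066), without WT replicate 2 (adjusted p = 0.25, the highest over the alternatives, with 0.00048 the lowest) or without R111A replicate 1 (-0.28, adjusted p = 0.096). Rbm3 and Cirbp are known as genes induced by cold and not by heat, so the name of the list does not describe them.

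**Figure D4:**
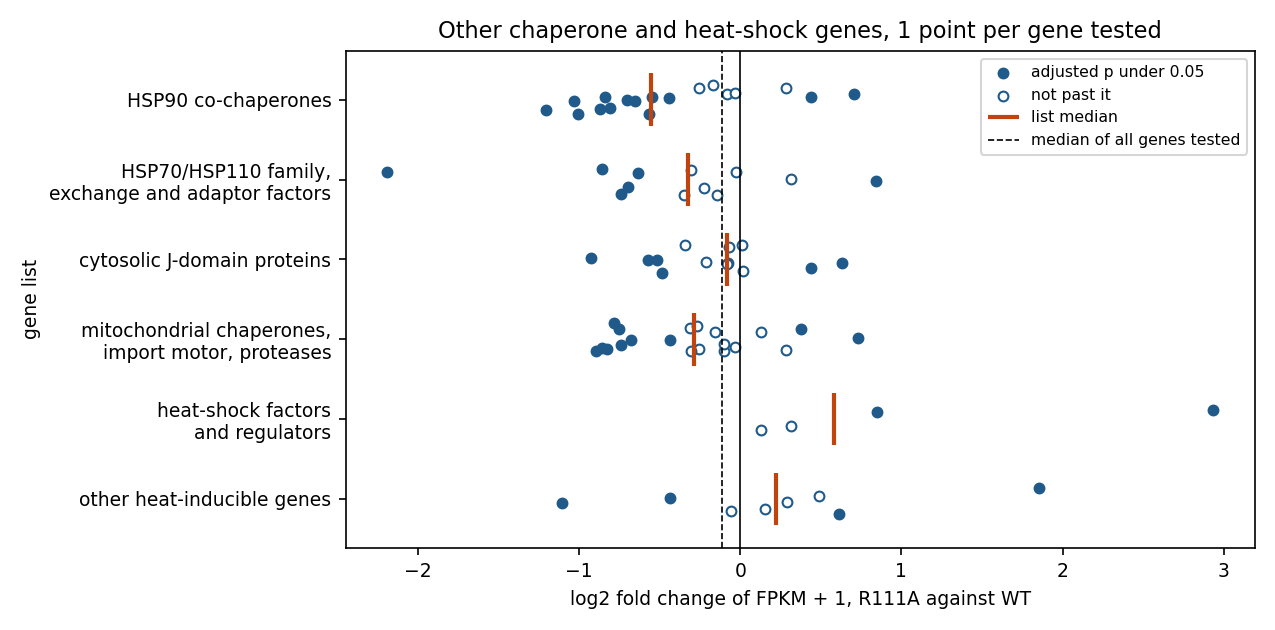
Log2 fold change of FPKM + 1 in R111A against WT for each gene tested in 6 lists, 1 point a gene, spread vertically only to be seen. Filled points have an adjusted p under 0.05, red lines are list medians and the dashed line is the median of all genes tested (-0.12). The median is -0.56 for HSP90 co-chaperones, and that of the 4 heat-shock factors and regulators includes Hsf2bp, which was tested only through its level in R111A.

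Markers of the labelled cells were present in every library, though not at equal levels. The list for CD4+ T cells, 8 genes all tested, summed to 2076 and 2060 FPKM in WT cells against 1728 and 1583 FPKM in R111A, with Cd3g the most abundant except in R111A replicate 1, where Cd5 and Lck exceeded it. Of these, 4 were lower and 1 higher, beside 32.1% and 21.2% of all genes, with Lck (adjusted p = 0.045) and Cd5 (adjusted p = 0.049) near the threshold. Cd4 itself was at 157.54 and 131.28 FPKM in WT cells against 70.69 and 51.35 FPKM in R111A. Of the Treg list of 2 genes, 1 was lower, Foxp3, the more abundant except in R111A replicate 2, at 11.31 and 8.78 FPKM in WT cells against 2.86 and 1.86 FPKM in R111A, and the list summed to 15.81, 13.12, 5.21 and 6.22 FPKM in the order WT 1, WT 2, R111A 1 and R111A 2. The CD8+ list of 2 genes summed to 7.31, 6.76, 3.88 and 4.46 FPKM in that order, led by Cd8b1, which was lower.

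Markers of other cell types were low in every library, and most were too low to be tested. Those tested, 2 of 7 B cell genes, 2 of 8 myeloid, 1 of 4 NK and 1 of 6 erythroid genes, reached the mean of 1 FPKM only through R111A and so had to differ. B cell genes summed to 2.23 and 1.06 FPKM in WT cells against 5.32 and 4.60 FPKM in R111A, led by Cd79a in both R111A libraries and by Cd79b in WT replicate 1. Myeloid genes summed to 1.32 and 1.47 FPKM in WT cells against 9.84 and 7.04 FPKM in R111A, led by Fcer1g, with S100a9 at 0 in all libraries. NK genes summed to 1.03 and 0.82 FPKM in WT cells against 7.86 and 5.68 FPKM in R111A, led by Eomes, a gene that T cells also express. Erythroid genes summed to 0.66 and 0.70 FPKM in WT cells against 12.93 and 12.97 FPKM in R111A, led by Hba-a1, with Hba-a2 and Hbb-bs at 0 in all libraries. Dendritic genes, none of 4 tested, summed to between 0.40 and 0.63 FPKM, led by Flt3 in WT, level there with Siglech in replicate 1, and by Itgax in R111A. Markers other than the most abundant of a list by its mean are named after their values were seen. The cells had been enriched with beads and sorted by FACS as CD4+ T cells. The part of other cell types in the low levels of Hspa1a and Hspa1b, which are of the same size as these markers, was not tested.

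Genes of T cell activation and of early stress moved as well. Of 5 activation genes, 3 were higher (21.2% of all genes were) and 1, Myc, was lower (32.1% of all genes), with sums of 786.56 and 776.39 FPKM in WT cells against 1871 and 1614 FPKM in R111A, and Nr4a1 had the highest mean, though Myc led in WT replicate 1 and Cd69 in WT replicate 2 and R111A replicate 2. Of 11 immediate early genes that handling of cells can also induce, 8 were higher and 1 lower among 10 tested, beside the same 21.2% and 32.1% of all genes, with sums of 386.00 and 399.90 FPKM in WT cells against 865.13 and 606.89 FPKM in R111A, led by Junb. Hspa1a, Hspa1b and Ier5 were higher in R111A as well, which with 2 libraries a group says nothing of a link to these lists. The part of the lists in those results was not tested.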

How the data were processed

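RNA-seq of 2 WT and 2 R111A libraries of stimulated CD4+ T cells was read from 1 table. The authors trimmed polyA reads, aligned them to mm10 with Bowtie2 (version 2.4.4), estimated expression with RSEM (version 1.2.28) and deposited FPKM values; their calls came from DESeq2 on counts not used here. After adding 1 FPKM and taking log2, genes whose mean reached 1 FPKM were compared in limma (version 3.58.1, R 4.3.3; lmFit, eBayes with trend, Benjamini-Hochberg adjustment), and the procedure was tested on simulated data. Thresholds were an adjusted p of 0.05 alone or with 2-fold. Columns not used numbered 0. The members and lists were chosen with earlier results of these data known. The values of some listed genes are not reported here. Named genes were the members, Zc3h12a, up to 3 genes a direction in each list (largest change past the threshold, mean from 5 FPKM up, R111A libraries on 1 side of WT) and the most abundant marker of each list. Reads were estimated roughly from single-read steps, sought within a set range of values, and GENCODE transcript lengths. Other steps used python 3.11.15 with numpy 2.4.6, pandas 2.3.3 and matplotlib 3.10.9. The alternatives tried were other pseudocounts, filters, scalings, variance settings, a replicate block, no fold threshold and each library left out.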

Additional observations from a re-analysis of the deposited data

How the results depend on the processing

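Under the 14 alternatives, 6 of the 10 chaperones kept their direction and their side of an adjusted p of 0.05 (limma), Hspa1a and Hspa1b, tested only through their level in R111A, did so under the 13 that tested them, and Dnaja1 and Dnajb1 did not. Dnajb1 was at 0.0048 under quantile scaling, the only change of sign among the chaperones, and the cause was not tested. At 2-fold, 5 chaperones were lower in TPM, and 6 with no fold threshold; 0 were higher by 2-fold with a pseudocount of 5 FPKM, where Hspa1a (0.47) and Hspa1b (0.81) still passed the adjusted p, and 0 at a mean of at least 5 FPKM, where neither was tested. Leaving out 1 library gave 2 to 3 lower chaperones, against 8.38% to 8.99% of all genes, and 2 higher, against 8.48% to 8.66%. Their median log2 fold change was -1.12 in TPM, and from -0.59 to -0.81 with 1 library left out. Genes called lower and higher were 402 and 386 with a pseudocount of 5 FPKM, 1756 lower in TPM, 521 higher at a mean of at least 5 FPKM, and 3152 and 2088 with no fold threshold. Pathway genes past the adjusted p were 49 lower and 5 higher in TPM and 6 to 17 higher with 1 library left out. Among the 28 pathway genes named as lower or higher, 16 kept their call in each alternative that tested them. Hsf1, which did not pass, changed sign in TPM (-0.197) and ran from -0.027 to 0.286 with 1 library left out, Hsbp1, named after its values were seen, was at -0.015 in TPM, and the cause was not tested.

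Replicate numbers were shared by the groups, but their deviations from the group means correlated at only 0.111 and there are 2 pairs, so the numbers were not taken as pairing. With the replicate block, 821 genes were lower and 841 higher, the counts of chaperones stayed at 2 and 2, and Dnaja1 passed (adjusted p = 0.028). A library left alone in its group was assumed to vary like the other group. The groups did not vary alike: over all genes tested, the spread of the log2 ratio between replicates was 0.135 in WT and 0.318 in R111A. Fits without an R111A library took their spread from WT alone, so their adjusted p-values are likely too small. Without counts, the precision of low values such as Hspa1a is known only roughly, from the estimated reads.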
